A study of Mus musculus with 4 samples.

Results

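The axoneme is the microtubule scaffold that bends the tail of a sperm cell and beats in motile cilia. Its genes were read here from 4 RNA-seq libraries of mouse primary spermatocytes, the germ cells that are in meiosis. They were chosen by name, as every gene of the count table whose symbol is Dnah, Dnai, Dnaaf, Drc, Cfap, Rsph or Tekt followed by a number, with clone names that end in Rik left out. This gave 78 of the 53700 genes listed, of which 15 are dynein heavy chains (Dnah) and 63 are other genes, most of them smaller. Both groups were C57BL/6 mice that were 8 wk old. The control libraries are replicates 2 and 3. The circSRY KO libraries are replicates 1 and 2, from mice in which a short deletion made by CRISPR-Cas9 removed the splice acceptor upstream of the Sry coding region, so that the circular RNA of Sry is not formed. The deletion was carried in every tissue and not in germ cells alone, and each group had 2 mice. Cells were sorted by their DNA content after Hoechst staining. The comparison asks whether the axoneme genes that spermatocytes begin to transcribe for the later sperm tail differ between the groups, and whether the large dynein motors and the small components do so alike.

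Dynein arms are motors fixed along the outer doublet microtubules, and each is built around heavy chains, which hydrolyse ATP and pull on the neighbouring doublet. Outer arms set the beat frequency and inner arms shape the bend. Arms are put together in the cytoplasm by assembly factors (Dnaaf) before they are carried to the axoneme. The nexin-dynein regulatory complex (Drc) links doublets, radial spokes (Rsph) pass signals from the central microtubule pair to the arms, and tektins (Tekt) form filaments inside the doublets. Transcription of many of these genes starts in pachytene spermatocytes, well before a tail is visible, and in ciliated tissues RFX and FOXJ1 factors drive them.

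The libraries held 8045148 to 8839461 expected counts, the estimated number of reads per gene. A count of 3 corresponded to between 0.339 and 0.373 CPM (counts scaled to library size), before the libraries were scaled to each other, which is the level below which a gene is not detectable. Levels between genes are compared as TPM, which is scaled for transcript length, and groups were compared on the counts. Calls required a false discovery rate under 0.05 in edgeR's quasi-likelihood test and a change of 1 or more on the log2 scale, and their direction is that of circSRY KO relative to the controls. Over all 17766 genes tested, 20% were called higher and 15% lower, and the median log2 fold change was 0.07. The groups also differed in markers of stage and of other cells. All 12 elongating spermatid markers were called higher, with a summed TPM of 8045 to 8479 in the controls and 42635 to 52773 in circSRY KO, and 10 of 15 round spermatid markers were called higher. Of 12 leptotene and zygotene markers 9 were called lower. Of 12 pachytene spermatocyte markers 1 was called higher and 3 lower, with a median log2 fold change of −0.44. All 10 leukocyte markers, all 8 stroma markers and 7 of the 8 tested Sertoli markers were called higher, and all 7 Leydig markers were called lower. The part of these shifts in the results on axoneme genes was not tested, and fewer cells of a type cannot be told apart from less RNA per cell in such bulk samples. Of 12 markers of multiciliated cells 7 were tested, 1 of them called higher (Deup1, 1.62 ± 0.356, SE) and 1 lower (Ccdc78, −2.96 ± 0.687, SE). The summed TPM of the 12 was 392 and 456 in the controls and 399 and 595 in circSRY KO, and most of it came from Cdhr4, with 205 to 308 TPM, and Deup1, with 56.6 to 244 TPM. Sntn and Cdhr3 were at 0 in every library, and Mcidas, which starts the multiciliated program, was at 0 in 3 of the 4 libraries.

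Across the 76 axoneme genes tested, 8 were called higher (10.5%) and 16 lower (21.1%) in circSRY KO. Over all genes these shares were 20% and 15%. The 2 genes that did not pass the filter on low counts were Dnah2os, an antisense transcript of Dnah2 with 1 to 5 counts per library, and Rsph4a with 0 to 6. The calls fell unevenly over the families. Of the 15 heavy chains 8 were called lower (53.3%) and 0 higher, with a median log2 fold change of −1.09. At an unadjusted p under 0.05 in edgeR's quasi-likelihood test 2 heavy chains stood higher. DESeq2 and limma-voom called 0 higher and edgeR's likelihood ratio test called 1. Of the 61 other genes tested 8 were called lower and 8 higher (13.1% each), with a median of 0.12. By CPM the groups did not overlap for 11 of the 15 heavy chains and for 42 of the 61 other genes, where 71.0% of all genes tested did not overlap.

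Both heavy chains of the outer arms of sperm tails, Dnah8 and Dnah17, fell, and Dnah8 had the highest TPM of the 15 heavy chains in every library. Dnah8 had 2654 and 2516 CPM in control replicates 2 and 3, and 642 and 1135 CPM in circSRY KO replicates 1 and 2. Its log2 fold change was −1.54 ± 0.397 (SE, n = 2 libraries a group, edgeR adjusted p = 0.00771). Dnah17, the partner of Dnah8 in sperm outer arms, had 1207 and 1169 CPM in the controls and 267 and 626 CPM in circSRY KO. Its log2 fold change was −1.41 ± 0.411 (SE, edgeR adjusted p = 0.0148). Neither gene overlapped between groups, and both had fewer CPM in circSRY KO replicate 1 than in replicate 2. Dnah8 lies on chromosome 17 (GRCm39 chr17:30843328-31096339, 93 exons in the canonical transcript) and Dnah17 on chromosome 11 (GRCm39 chr11:117912549-118021460, 81 exons). Glo1 overlaps Dnah8 and Pgs1 overlaps Dnah17 on the other strand. The library kit does not mark the strand, so reads in the overlaps cannot be assigned to a strand. Further axoneme genes have such overlaps, among them Dnah1 (Bap1), Dnah14 (Lbr), Dnah7c (Slc39a10), Dnah3 (Lyrm1), Dnah11 (Cdca7l), Rsph1 (Slc37a1) and Cfap100 (Zxdc). Pms2 overlaps Rsph10b on the same strand.

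The isoforms that take these places in the cilia of airway and other somatic cells were at low levels. Dnah5, the counterpart of Dnah8, had 0.19 to 1.12 TPM in the 4 libraries, where Dnah8 had 296 to 726 TPM. Dnah9 and Dnah11, the counterparts of Dnah17, had 1.12 to 3.93 TPM and 0.75 to 1.55 TPM, where Dnah17 had 23.4 to 145 TPM. The order held in every library, and the TPM of Dnah17 exceeded that of Dnah9 by 15-fold at the least, in circSRY KO replicate 1. None of the somatic isoforms was called. Dnah11 had 4.75 and 4.43 CPM in the controls and 10.9 and 7.49 CPM in circSRY KO, without overlap, at a log2 fold change of 1.00 ± 0.421 (SE, edgeR adjusted p = 0.0727). Dnah9 was at 0.83 ± 0.439 and Dnah5 at 0.64 ± 0.591 on the log2 scale (SE).

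**Figure D1:**
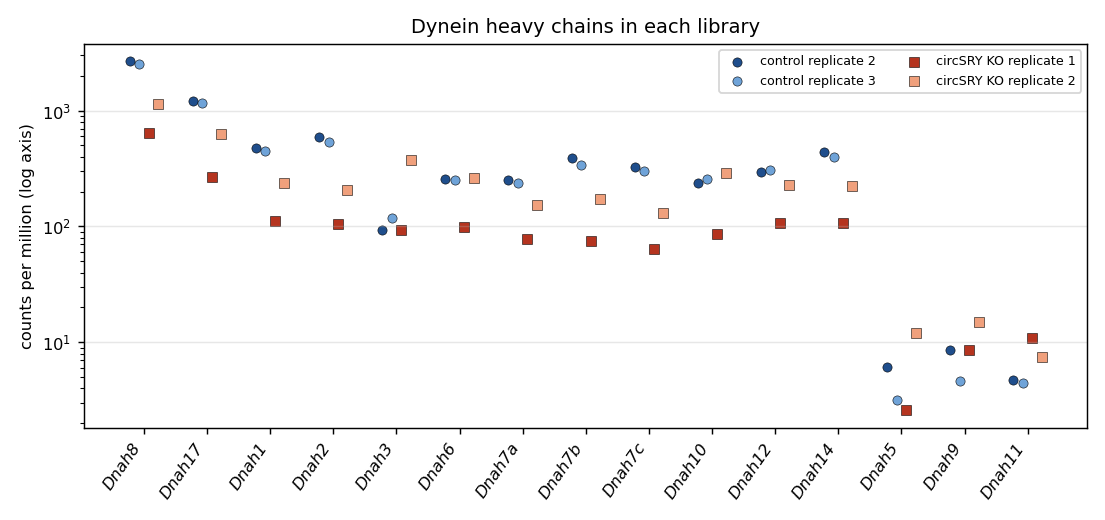
CPM, scaled by TMM and drawn on a log axis, of the 15 dynein heavy chains in the control (circles) and circSRY KO (squares) libraries, with each point 1 library. From Dnah8 to Dnah14 the darker squares of circSRY KO replicate 1 lie below both circles, while in circSRY KO replicate 2 Dnah3, Dnah6 and Dnah10 lie above them; Dnah5, Dnah9 and Dnah11 stay at or under 15 CPM.

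The remaining heavy chains are mostly motors of the inner arms, and 6 of 10 were called lower. Dnah2, a heavy chain of the double-headed inner arm, showed the lowest fold change of any heavy chain. It had 589.9 and 531 CPM in the controls and 105 and 207 CPM in circSRY KO, and its log2 fold change was −1.85 ± 0.377 (SE, edgeR adjusted p = 0.00191). Dnah1, an inner arm motor required for sperm tails in mouse and human, had 473 and 444 CPM in the controls and 111 and 236 CPM in circSRY KO, and its log2 fold change was −1.40 ± 0.378 (SE, adjusted p = 0.01). Dnah14, whose place in the axoneme is less well defined, had 437 and 398 CPM against 106 and 225 CPM, with a log2 fold change of −1.33. For these genes too the groups did not overlap, and circSRY KO replicate 1 was again the lower of its group. The 3 copies Dnah7a, Dnah7b and Dnah7c lie on chromosome 1 and share reads, since RSEM gave each a fractional count in 3 or 4 of the libraries. The split between them is therefore uncertain. Their summed CPM was 966 and 878 in the controls and 216 and 454 in circSRY KO, and the log2 fold changes of the single copies were −1.09, −1.57 and −1.69, all of them called.

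Of the inner arm heavy chains, 4 were not called, and in 3 of them the circSRY KO libraries stood on opposite sides of the controls. Dnah10, the partner of Dnah2 in the double-headed arm, had 235 and 257 CPM in the controls, 86.6 CPM in circSRY KO replicate 1 and 291 CPM in replicate 2. Dnah6 had 257 and 254 CPM in the controls and 99.1 and 261 CPM in circSRY KO. Dnah3, a single-headed inner arm motor, went furthest apart, with 93.3 and 118 CPM in the controls, 92.9 CPM in circSRY KO replicate 1 and 376 CPM in replicate 2. Its log2 fold change of 1.15 ± 0.477 (SE) had an edgeR adjusted p of 0.0687. For these genes the spread within the circSRY KO group was larger than the difference between the group means. Dnah12 had 295 and 309 CPM in the controls and 107 and 228 CPM in circSRY KO, without overlap, at a log2 fold change of −0.85 ± 0.37 (SE, edgeR adjusted p = 0.081).

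By CPM the heavy chains varied within the circSRY KO group more than they did among the controls. Their summed CPM was 7227 and 6886 in the controls, 1855 in circSRY KO replicate 1 and 4075 in replicate 2. Their summed TPM was 1386 and 1463 in the controls and 754 and 759.6 in circSRY KO. In that sum the gap between the circSRY KO libraries was not seen. Dnah8 was the largest part of it, at 450.1 TPM in replicate 1 and 296 TPM in replicate 2. Dnah7b, Dnah14 and Dnah11 also had more TPM in replicate 1 than in replicate 2. The remaining heavy chains had fewer, as Dnah17 with 23.4 and 67.3 TPM and Dnah1 with 10.6 and 35.2 TPM. The CPM was lower in replicate 1 than in replicate 2 for 14 of the 15 heavy chains, where this held for 52.5% of all genes tested. With the 3 somatic isoforms set aside, all 12 remaining heavy chains lay below both controls by CPM in replicate 1. In replicate 2, 9 of the 12 did so. Over all 15 heavy chains these counts were 13 and 9. Of all genes tested, 44.0% lay below both controls in replicate 1 and 43.0% in replicate 2. Without circSRY KO replicate 1 the number of heavy chains called lower was 4 and the number called higher 3, and without circSRY KO replicate 2 these were 11 and 1. Leaving out control replicate 2 gave 5 called lower. Of the 8 heavy chains called lower, 4 kept the call whichever library was left out, and Dnah2 and Dnah7c kept it under every setting tried.

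Transcript length moved with these results. Over all genes tested the median log2 fold change fell from 0.89 at an effective length under 500 bases to −0.46 at 10000 bases or more, where effective length is the number of positions at which a read can start, recovered from the counts and FPKM. In the longest class 27.6% of 98 genes were called lower and 6.12% higher. The fall with length was steeper in circSRY KO replicate 1, in which the median log2 ratio to the control mean was 1.10 in the shortest class and −1.18 in the longest. In replicate 2 these medians were 0.69 and −0.09. Heavy chain mRNAs are among the longest of the cell, with canonical transcripts of 12028 to 16685 bases. Of the 425 other genes tested whose canonical transcript has at least 10000 bases, 21.2% were called lower and 11.1% higher, with a median log2 fold change of −0.25. In circSRY KO replicate 1 the median log2 ratio to the control mean was −1.66 for the heavy chains and −0.87 for these long genes. In replicate 2 it was −0.68 for the heavy chains and 0.08 for the long genes. The difference between the heavy chains and other long genes was not tested.

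With an offset for length in the same edgeR fit, 5 heavy chains were called lower and 3 higher. Their median was −0.72 on the log2 scale, and over all genes 15.4% were called lower and 20.3% higher. Those called lower were Dnah8, Dnah2, Dnah7b, Dnah7c and Dnah14. The offset was set by effective length, which was 4618 bases for Dnah8, 5537 for Dnah7b and 3098 for Dnah14. Their canonical transcripts have 16685, 12319 and 13791 bases, so these 3 were adjusted as shorter genes. For Dnah2 and Dnah7c the effective length was 9549 and 11754 bases. Dnah17, Dnah1 and Dnah7a fell short of the limit of 1 at −0.93, −0.97 and −0.72. Their effective lengths were 13256, 9303 and 6168 bases. Those called higher were Dnah3, Dnah9 and Dnah11, at 1.41, 1.23 and 1.66. The offset with circSRY KO replicate 2 alone in its group, a setting chosen after seeing the data, gave 4 lower and 3 higher.

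**Figure D2:**
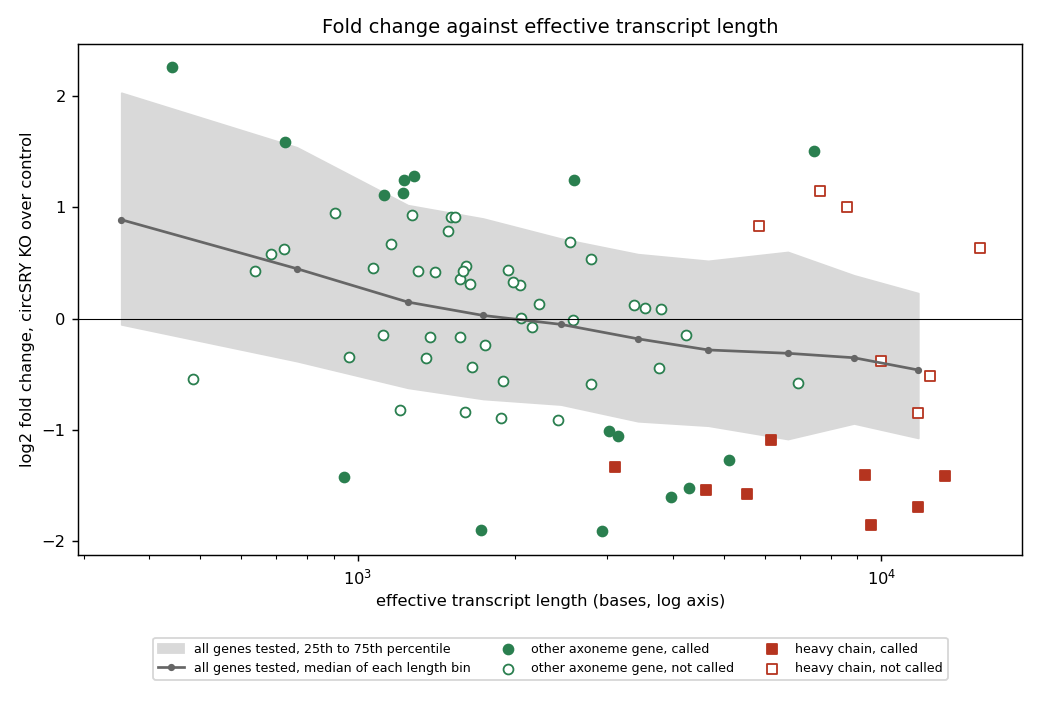
Log2 fold change of circSRY KO over control against effective transcript length (log axis) for the 15 heavy chains (squares) and 61 other axoneme genes (circles), filled where called, over the median and the 25th to 75th percentiles of all genes tested in each length bin. The grey line falls from 0.89 to −0.46, and the 8 filled squares lie between −1.09 and −1.85.

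The smaller genes did not move as a group. Of the 38 with an effective length under 2000 bases, 6 were called higher and 2 lower, and their median log2 fold change was 0.43. Of all 9721 genes in that length class 25.9% were called higher and 11.1% lower, with a median of 0.28. Of the 18 between 2000 and 4000 bases, 1 was called higher and 4 lower, with a median of 0.00. In that class 14.1% of all genes were called higher and 18.6% lower. The 5 longest, all of them Cfap genes, had a median of −0.58, with 1 called higher and 2 lower, where 9.75% of all genes of 4000 bases or more were called higher and 22.7% lower. Across the 61 genes, Spearman's rho of length and log2 fold change was −0.416, and across all genes tested it was −0.244. These describe genes that share 4 libraries.

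**Figure D3:**
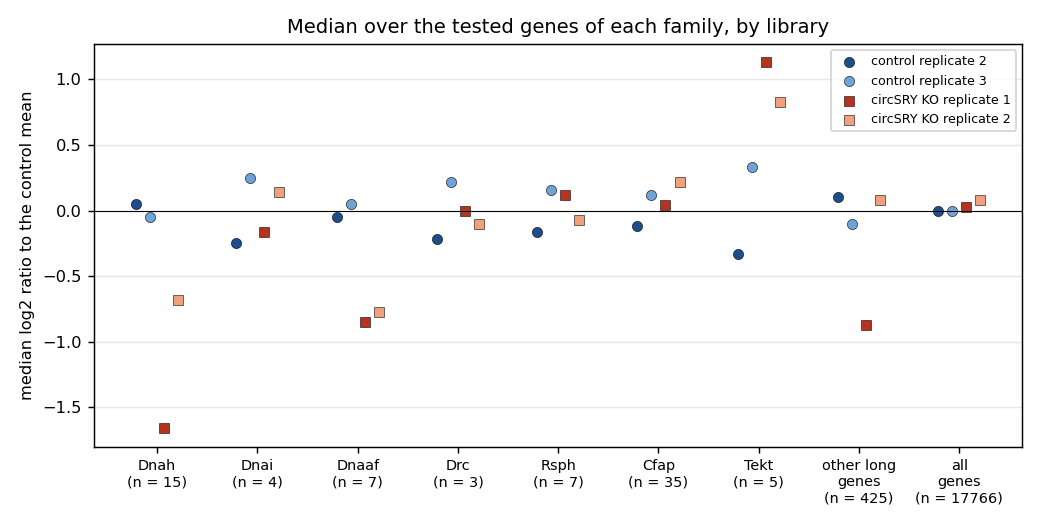
Median log2 ratio to the control mean over the tested genes of each family, with each point 1 library, beside 425 other genes with a canonical transcript of at least 10000 bases (other long genes) and all 17766 genes tested. In circSRY KO the heavy chains were at −1.66 and −0.68, Dnaaf at −0.85 and −0.77 and the tektins at 1.13 and 0.83, while Dnai, Drc, Rsph and Cfap lay between −0.16 and 0.22.

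The intermediate chains, which anchor the heavy chains to the doublet, were not called. Dnai1 of the outer arm had 109 and 141 CPM in the controls and 100.3 and 123 CPM in circSRY KO, and its groups overlapped. Dnai2, its partner in the outer arm, had 80.0 and 139 CPM in the controls and 199.9 and 155 CPM in circSRY KO, at a log2 fold change of 0.69 ± 0.342 (SE, edgeR adjusted p = 0.122). Dnai3 and Dnai4, intermediate chains of the double-headed inner arm, were at −0.24 ± 0.309 and 0.10 ± 0.324 on the log2 scale (SE), with overlapping groups. Of the heavy chains of these arms, Dnah8, Dnah17 and Dnah2 were called lower in the same libraries and Dnah10 was not called. Whether the change of a heavy chain differed from that of its intermediate chain was not tested. Among the 12 light and light intermediate chains tested, 3 were called higher (25%) and 1 lower (8.33%), with a median of 0.32. Over all genes these shares were 20% and 15%. Dynlt5 was at 2.89 ± 0.328 and Dynll2 at 1.34 ± 0.322, and Dynlt2a2 was at −2.96 ± 0.332 on the log2 scale (SE). Dynlt2a2 is a near copy of Dynlt2a1, named here for that reason and at 0.46, so the split of reads between them is uncertain.

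Assembly factors were called in 1 direction only. Of 7 Dnaaf genes tested 3 were called lower (42.9%) and 0 higher, where 15% of all genes were called lower and 20% higher. The median log2 fold change of the 7 was −0.82. Dnaaf4, known also as Dyx1c1, fell the most. It had 57.7 and 60.7 CPM in the controls and 19.8 and 11.9 CPM in circSRY KO, and its log2 fold change was −1.90 ± 0.339 (SE, edgeR adjusted p = 0.000802). Dnaaf4 kept its call under every setting tried. Unlike 14 of the 15 heavy chains by CPM, it was lower in circSRY KO replicate 2 than in replicate 1. Dnaaf2, a co-chaperone known as kintoun in other species, had 132 and 141 CPM in the controls and 67.0 and 65.5 CPM in circSRY KO (log2 fold change −1.05). Dnaaf5 had 113 and 103 CPM against 49.0 and 57.9 CPM (log2 fold change −1.01). Both sat at the limit of 1 and lost the call with the length offset, at −0.78 each, and without either control library. Dnaaf4 overlaps the predicted gene Gm44503 and Dnaaf2 the predicted genes Gm49383 and Gm49384 on the same strand, so the split of reads between them is uncertain. Dnaaf1, the highest of the family in TPM, had 898 and 1275 CPM in the controls and 1228 and 933 CPM in circSRY KO, with overlapping groups. Dnaaf3 was at 0.33 ± 0.306 and Dnaaf6 at −0.82 ± 0.367 (SE), neither called. Dnaaf6b, a gene of 7 exons on the X chromosome, was at or under 1.96 CPM, while Dnaaf6 has 1 exon and lies on chromosome 1. Of 11 assembly factors with other names 0 were called higher and 2 lower, which is 18.2% and near the 15% of all genes. The 2 were the AAA ATPase Ruvbl1 (−1.40 ± 0.334) and Wdr92 (−1.39 ± 0.369, SE).

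Of the linkers between doublets, the genes named Drc were not called. Drc1, Drc3 and Drc7, subunits of the nexin-dynein regulatory complex, were at 0.13 ± 0.313, −0.43 ± 0.305 and −0.07 ± 0.311 on the log2 scale (SE). Drc1 had 123 and 167 CPM in the controls and 163 and 154 CPM in circSRY KO. Of this complex and of the molecular ruler along the doublet, 8 genes that carry other names were tested. Among them Fbxl13 was called higher (1.85 ± 0.359) and Ccdc39 lower (−1.05 ± 0.343, SE). That is 12.5% in each direction, where 20% of all genes were called higher and 15% lower. Ccdc39, a ruler protein that sets the spacing of the arms, had 526 and 476 CPM in the controls and 189 and 293 CPM in circSRY KO. With the length offset it was at −0.97, under the limit on the fold.

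Among the 7 Rsph genes tested, Rsph1 alone was called. Rsph1 is a spoke head protein and had the highest TPM of all 78 genes in the controls, with 2051 and 2219 TPM in the controls and 789 and 514 TPM in circSRY KO. By CPM it stood at 1221 and 1440 in the controls and 651 and 347 in circSRY KO, and its log2 fold change was −1.42 ± 0.387 (SE, edgeR adjusted p = 0.0108). Rsph1 is short, with a canonical transcript of 1212 bases, and it was lower in replicate 2 than in replicate 1, the reverse of most heavy chains by CPM. It kept its call under every setting tried. Rsph3a and Rsph3b share reads with each other, and their summed CPM was 774 and 989.9 in the controls and 826 and 553 in circSRY KO, with neither called. With the length offset Rsph3a was called lower at −1.23, against −0.54 without it, and it was also called lower without circSRY KO replicate 1. The effective length of Rsph3a was 485 bases and its canonical transcript has 2276 bases, so the offset adjusted it as a shorter gene. Rsph6a, the spoke head protein of sperm, had 177 and 222 TPM in the controls and 161 and 174 TPM in circSRY KO. Its log2 fold change was 0.01 ± 0.325 (SE). Its somatic counterpart Rsph4a was listed at 0 to 0.34 TPM. Rsph9 was at 0.63 ± 0.341, Rsph10b at 0.43 ± 0.301 and Rsph14 at 0.95 ± 0.337 (SE). Of these Rsph14 had an edgeR adjusted p of 0.0382 and fell short of the limit on the fold. Of 11 spoke genes with other names 3 were called higher (27.3%) and 0 lower, with a median of 0.91. Over all genes 20% were called higher and 15% lower. The 3 were Dydc2 (3.57 ± 0.383), Ropn1 (2.22 ± 0.348) and Iqub (1.02 ± 0.355, SE). Dydc2 went from 2.92 and 2.59 CPM in the controls to 34.3 and 31.5 CPM in circSRY KO.

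The tektins stood higher in circSRY KO, and 2 of 5 were called, where 20% of all genes were called higher. All 5 had both circSRY KO libraries above both controls by CPM, as did 6493 of all 17766 genes tested. Their median log2 fold change was 0.91. Tekt2 had 151 and 238 CPM in the controls and 456 and 468 CPM in circSRY KO, and its log2 fold change was 1.25 ± 0.343 (SE, edgeR adjusted p = 0.011). Tekt4 had 117 and 198 CPM in the controls and 379.9 and 388 CPM in circSRY KO, and its log2 fold change was 1.28 ± 0.346 (SE, adjusted p = 0.00991). The other 3 were not called, Tekt5 at 0.91 ± 0.302 (adjusted p = 0.0278), Tekt3 at 0.91 ± 0.354 (adjusted p = 0.0534) and Tekt1 at 0.67 ± 0.338 (SE, adjusted p = 0.133). Control replicate 3 was above control replicate 2 for each tektin. Without control replicate 2 neither Tekt2 nor Tekt4 was called, at 0.94 each. The level of the 5 genes, as summed TPM, was 829.7 and 1138 in the controls and 1586 and 1756 in circSRY KO. Of 15 other proteins of the inside of the doublet tested, 7 were called higher and 0 lower, with a median of 0.97. Spaca9 was at 2.32 ± 0.342, Tex49 at 2.01 ± 0.346, Tex43 at 1.91 ± 0.321 and Saxo1 at 1.91 ± 0.366 (SE). Round and elongating spermatid markers rose in the same libraries, as given above.

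**Figure D4:**
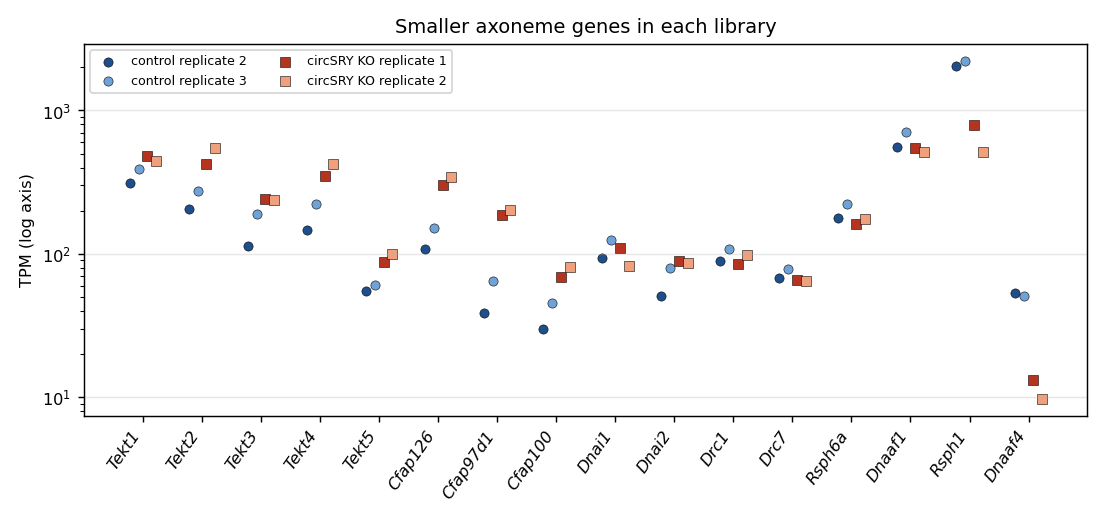
TPM on a log axis of 16 smaller axoneme genes in the control (circles) and circSRY KO (squares) libraries, with each point 1 library. The squares lie above the circles for the 5 tektins, Cfap126, Cfap97d1, Cfap100 and Dnai2, and overlap them in TPM for Dnai1 and Drc1. They lie below the circles for Rsph1, Dnaaf4, Drc7, Rsph6a and Dnaaf1. By CPM the groups overlap for Drc7, Rsph6a and Dnaaf1.

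The Cfap genes, named for cilia and flagella associated proteins of many kinds, were called in both directions. Of 35 tested 6 were called higher and 4 lower, which is 17.1% and 11.4% against 20% and 15% of all genes, with a median of 0.30. The largest rise was in Cfap97d1, which is needed to keep the sperm axoneme intact in mouse. It had 11 and 17.5 CPM in the controls and 71.6 and 64.8 CPM in circSRY KO. Its log2 fold change was 2.26 ± 0.338 (SE, edgeR adjusted p = 0.000275), and it was the only called gene of the 8 higher that kept its call whichever library was left out. Dusp3 overlaps it on the other strand. Cfap126, a protein of the inside of the doublet, had 48.4 and 74.5 CPM against 198 and 172 CPM (log2 fold change 1.59). Cfap47 and Cfap58, both linked to sperm tail malformation, were at 1.51 ± 0.402 and 1.25 ± 0.374 (SE). Cfap47 had 11.9 and 13.7 CPM in the controls, 21.3 CPM in circSRY KO replicate 1 and 51.8 CPM in replicate 2, so that most of its rise lay in 1 library. Cfap100 (1.13 ± 0.315), known in Chlamydomonas as a modifier of inner arms, and Cfap77 (1.11 ± 0.403, SE) were also called. Cfap77 lost its call with the length offset, just under the limit of 1, and also in DESeq2. By limma on TPM, Cfap77, Cfap100, Cfap47 and Cfap58 were not called. With a library left out, Cfap77 ran from 0.67 to 1.49, Cfap100 from 0.83 to 1.36, Cfap47 from 0.73 to 2.0 and Cfap58 from 0.79 to 1.65.

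The Cfap genes called lower are mostly long. Cfap46, a protein of the central apparatus, had 288 and 250.4 CPM in the controls and 58.5 and 119 CPM in circSRY KO, and its log2 fold change was −1.60 ± 0.367 (SE, edgeR adjusted p = 0.00398). Cfap74 of the same structure had 301 and 287 CPM against 55.9 and 149.5 CPM, at −1.52 ± 0.406 (SE). Cfap65, linked to sperm tail malformation, had 964 and 864 CPM against 229 and 529 CPM, at −1.27 ± 0.403 (SE). These 3 have canonical transcripts of 5695 to 8180 bases, and like most heavy chains they had fewer CPM in circSRY KO replicate 1 than in replicate 2. With the length offset Cfap46 and Cfap74 were called and Cfap65 was not, at −0.96. The effective length of Cfap46 was 3959 bases and its canonical transcript has 8180 bases, so the offset adjusted it as a shorter gene. Cfap97d2 was called at −1.91 ± 0.639 (SE) from 0.337 to 2.34 CPM. Its lowest library had 3 counts, and the call was lost in DESeq2, in limma on TPM and in 3 of the 4 fits with a library left out, all but that without circSRY KO replicate 2.

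The Cfap genes of the highest TPM were not called, apart from Cfap126. Cfap206 had 507 and 651 TPM in the controls and 413 and 797 TPM in circSRY KO, and Cfap36 had 502 and 615 TPM against 577 and 559 TPM. Cfap69, needed for sperm tails in mouse and human, stood at 258 and 261 TPM against 313 and 415 TPM. For Cfap206 and Cfap36 the groups overlapped in TPM. Cfap45 and Cfap52, which line the inside of the doublet, were at 0.47 ± 0.328 and −0.56 ± 0.31 on the log2 scale (SE). Cfap54, of the central apparatus, has a canonical transcript of 9967 bases and had 133 and 127 CPM in the controls, 52.1 CPM in circSRY KO replicate 1 and 122 CPM in replicate 2.

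Other parts of the axoneme and of tail building were read from lists of further genes. Of the 12 central apparatus genes tested 1 was called higher, Spag6 (1.34 ± 0.373, SE), and 0 lower, with a median of −0.10. Over all genes 20% were called higher and 15% lower. Of the 5 genes of the complex that docks outer arms, Ccdc63, which serves sperm, was called higher (1.55 ± 0.338, SE) and 0 were called lower. Of 23 tested genes of intraflagellar transport, the traffic of cargo into cilia, 5 were called lower (21.7%, against 15% of all genes) and 0 higher, with a median of −0.57. Ift80 had 258 and 222 CPM in the controls and 70.2 and 82.0 CPM in circSRY KO, and its log2 fold change was −1.66 ± 0.316 (SE, edgeR adjusted p = 0.00125). Ift20 was at −1.53 ± 0.337 and Ttc21b at −1.32 ± 0.318 (SE). Dync2h1, the heavy chain of the motor of this transport, was named after its values were seen, and it had 441 and 344 CPM in the controls and 106 and 266 CPM in circSRY KO (−1.08 ± 0.403, SE, edgeR adjusted p = 0.0463). It thus had fewer CPM in replicate 1 than in replicate 2, as did 14 of the 15 axonemal heavy chains. With the length offset Dync2h1 was at −0.64 and Ttc21b at −0.96, both under the limit on the fold. Of 7 cytoplasmic dynein and dynactin genes 0 were called, and the median was −0.63. Dync1h1, the heavy chain of the cytoplasmic motor, had 1321 and 1258 CPM in the controls and 484 and 1061 CPM in circSRY KO, at −0.74 ± 0.401 (SE). Dctn2 of dynactin was at −0.29 ± 0.328 (SE). Some of the families and lists above had 0 calls in a direction by edgeR's quasi-likelihood test. For Dnai and Drc in both directions, for Dnaaf, the assembly factors with other names and intraflagellar transport among higher genes, and for the tektins, the other proteins of the inside of the doublet and the spoke genes with other names among lower genes, 0 genes passed at an unadjusted p under 0.05 and 0 were called by DESeq2, limma-voom and edgeR's likelihood ratio test. Among lower genes, an unadjusted p under 0.05 was reached by 2 of the central apparatus, 1 of the docking complex and 1 of cytoplasmic dynein, and by 1 of the higher Rsph genes, with 0 calls by those 3 tools.

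The transcription factors that drive motile cilium genes were themselves mixed. Of 11 regulators tested 2 were called higher and 1 lower, which is 18.2% and 9.09% against 20% and 15% of all genes. Rfx2, which drives spermatid and cilium genes in the mouse testis, had 249 and 256 TPM in the controls, and in circSRY KO it had 109 TPM in replicate 1 against 239 TPM in replicate 2. It was not called. Rfx1 (1.13 ± 0.357) and Rfx3 (1.12 ± 0.331) were called higher, and Mybl1, a regulator of pachytene genes, was called lower (−1.07 ± 0.303, SE). Foxj1 was at 0.49 ± 0.364 (SE). Rfx2 and Foxj1 were named for their roles after their values were seen. RFX factors bind the X-box, an imperfect palindrome around the letters GTTGCC and GGCAAC. Promoters from RefSeq (build GRCm38.p6, 250 bases before to 50 bases after each start) matched 62 of the 78 genes. An X-box on either strand stood in 13 of these 62 genes and in 1.75% of all genes with a promoter. The shorter site GTTGCC, searched on both strands and overlapping the X-box, stood in 26 of the 62 genes and in 14.1% of all genes. None of the 14 heavy chains with a promoter had an X-box in this window, and 4 had the shorter site. Such matches describe letters and not bound sites.

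A few of the windows are printed because they span genes that were called higher, called lower and not called. Each was matched to GRCm39, on which its place is given, and reads 5′ to 3′ along the gene, with the X-box in capitals. The Tekt2 window lies at chr4:126219491-126219517 on the minus strand, the Cfap58 window at chr19:47926085-47926111 on the plus strand, the Dnaaf2 window at chr12:69245200-69245227 on the minus strand, the Dnai2 window at chr11:114618205-114618231 on the plus strand, the Cfap45 window at chr1:172348671-172348698 on the plus strand and the Rsph3b window at chr17:7215727-7215753 on the minus strand.
Tekt2: gggggcgGTTGCTCGGCAACcagagcc
Cfap58: cgtggcgGTTGCCAGGCGACcgaagac
Dnaaf2: cccaggcGTTACTATGGCAACaaagcac
Dnai2: ggccaggGTTGCTAGGCAACtggtaaa
Cfap45: ttcttggGTTGCTATGGTAACgcgtcag
Rsph3b: acctcggGTTGCTCGGCAACcgatggg
Tekt2 and Rsph3b carry the same 13 bases in capitals, and their log2 fold changes were 1.25 and −0.16. Tekt2 and Cfap58 were called higher, Dnaaf2 was called lower, and Dnai2, Cfap45 and Rsph3b were not called. Among all 13 genes with an X-box, Tekt2 and Cfap58 were the only ones called higher and Dnaaf2 the only one called lower. Over all genes 20% were called higher and 15% lower.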

How the data were processed

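mRNA of Hoechst-sorted primary spermatocytes was sequenced in 4 libraries, grouped by their labels. The authors aligned reads with STAR 2.7.0f to GRCm39 and estimated expression with RSEM 1.3.2. The submitters' notes also list mm9. The deposited expected counts are the authors' unnormalized estimates per gene, the deposited TPM are scaled by length to a fixed sum per library, and the deposited FPKM are the authors' values per length and library size. A second TPM sheet, identical to the first (4 columns), and the authors' tables of fold changes and p-values were not used.

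Rounded expected counts were analysed with edgeR 4.0.16 under R 4.3.3 (filterByExpr, TMM, quasi-likelihood test, Benjamini-Hochberg adjustment over 17766 genes). The script was tested on simulated counts. CPM are scaled by TMM factors. The SE is the size of the fold change over the square root of F. Effective lengths were recovered by dividing the counts summed over libraries by the FPKM summed in the same way. Positions and canonical transcripts are from GENCODE M39 on GRCm39, in which 1090 listed genes had no match. Promoters were matched to 60 genes by symbol and 2 by synonym. The settings tried were upper-quartile and RLE scaling, the likelihood ratio test, DESeq2 1.42.0, limma 3.58.1 (voom, and log2(TPM + 1)), no filter, a mean count of at least 50, an FDR under 0.05 alone, a length offset and leaving out each library.

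The members and gene lists were chosen with earlier results of these data known. Every tested Dnah, Dnai, Dnaaf, Drc, Rsph and Tekt gene may be named. Cfap genes were named for the 6 highest and 6 lowest fold changes among those called, the 6 highest mean TPM, or a mean TPM of at least 20 when not called. Lists name up to 4 called genes by adjusted p, or 2 by mean TPM where 0 were called. The labels name separate samples and the study 2 mice a group, so p-values measure the spread between these samples.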

Additional observations from a re-analysis of the deposited data

How the results depend on the processing

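No paired analysis was possible because the groups share only replicate number 2. Upper-quartile scaling moved the median of all genes to 0.28 on the log2 scale and gave 13 axoneme genes called higher, of them 2 heavy chains. A mean count of at least 50 gave 13 higher, again with 2 heavy chains, and 5 smaller genes called lower. By limma on log2(TPM + 1), 4 axoneme genes, 0 of them heavy chains, were called higher and 5 heavy chains lower. The likelihood ratio test and the fit with no count filter each called 1 heavy chain higher. With the length offset 3 heavy chains were called higher and 5 lower. The offset with circSRY KO replicate 2 alone in its group, chosen after seeing the data, gave 9 axoneme genes called lower, 4 of them heavy chains and 5 smaller genes, and 3 heavy chains called higher. The median of the smaller genes was 0.32 with upper-quartile scaling, 0.00 by limma on TPM, 0.26 at a mean count of at least 50 and 0.23 with the length offset. Leaving out each library in turn gave 1 to 9 smaller genes called higher and 4 to 11 lower, 0 to 3 heavy chains higher and 4 to 11 lower, and 1 to 12 axoneme genes called higher and 9 to 22 lower, with medians of −0.09 to 0.30 for the smaller genes and −1.66 to −0.69 for the heavy chains. Left with 1 library, a group was assumed to vary like the other. Fold changes near 0 changed sign. Dnaaf1 was at 0.21 with upper-quartile scaling, 0.00 by limma-voom, 0.14 at a mean count of at least 50, 0.18 with the length offset, and −0.25 to 0.21 with a library left out. Rsph6a was at −0.03 with RLE scaling and by DESeq2, −0.24 by limma on TPM, −0.04 with no filter, −0.06 with the added setting, and −0.22 to 0.20 with a library left out. Cfap44 was at 0.05 with upper-quartile scaling, 0.03 by limma on TPM, 0.00 at a mean count of at least 50, 0.13 with the offset, 0.35 with the added setting and −0.83 to 0.29 with a library left out. Drc7 was at 0.14 with upper-quartile scaling, 0.08 at a mean count of at least 50, 0.03 with the offset and −0.31 to 0.14 with a library left out. By limma on TPM, Dnai3 was at 0.08, Dnai4 at −0.01, Drc1 at −0.10 and Cfap206 at 0.00. With upper-quartile scaling Dnai1 and Rsph3b were at 0.05. With the added setting Dnah10 was at 0.20, Dnai1 at 0.06 and Rsph9 at −0.03. With a library left out, Dnah10 ran from −1.51 to 0.23, Dnah6 from −1.37 to 0.01, Dnah3 from −0.19 to 1.81, Dnah5 from −0.85 to 1.35, Cfap61 from −0.37 to 0.74, Dnai4 from −0.18 to 0.37, Drc1 from −0.09 to 0.30 and Rsph3b from −0.36 to 0.00. Over the 59 genes named, 687 of the gene and setting pairs kept direction and call, 64 lost the call, 31 gained it and 41 changed sign. The causes were not tested. With 2 libraries a group and genes such as Cfap97d2 at 3 to 19 counts, small differences are not detectable at this depth.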

Other observations

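The effective length that RSEM gave a gene is a mean over its transcripts weighted by their estimated abundance, so it can differ between libraries. Of the 70 axoneme genes with at least 50 counts in every library, 7 had an effective length in circSRY KO replicate 1 under 50% of the mean of the controls, where 2.29% of all 9818 genes with such counts did. In circSRY KO replicate 2 this held for 0 of the 70 and for 0.53% of all genes. The cut-off was chosen after seeing the data. The 7 genes were Dnah8, Dnah7b, Dnah14, Cfap46, Cfap44, Dnai3 and Cfap61. For Dnah8 the effective length was 5986 bases on average in the controls, 1647 bases in circSRY KO replicate 1 and 5492 bases in replicate 2. For Dnah7b these were 7438, 1529 and 6614 bases, and for Dnah14 they were 4322, 919 and 4278 bases.

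The order of the circSRY KO libraries depended on the unit for Dnah8, Dnah7b, Dnah14, Cfap46 and Dnai3, while for Cfap44 and Cfap61 replicate 1 was the lower by both units. Dnah8 had 642 CPM in circSRY KO replicate 1 and 1135 CPM in replicate 2, but 450.1 TPM in replicate 1 and 296 TPM in replicate 2. Dnah14 had 106 and 225 CPM in these libraries, and 134 and 75.3 TPM. Dnah7b had 74.7 and 171 CPM, and 56.4 and 36.9 TPM. Dnah17, whose effective length was not under the cut-off, had 267 and 626 CPM and 23.4 and 67.3 TPM, so that both units gave the same order. By limma on log2(TPM + 1) Dnah8, Dnah7b and Dnah14 were not called, and 5 heavy chains were called lower. Whether reads of these genes came from shorter transcripts in replicate 1 was not tested.

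By TPM, 25 of the 61 smaller genes tested lay below both controls in both circSRY KO libraries and 15 above, while by CPM 18 lay below and 24 above. Of the 17766 genes tested, 6885 lay below and 5245 above by TPM, and 6119 below and 6493 above by CPM.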
